A study of Mus musculus with 6 samples.

Results

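The cytoplasmic ribosomal protein genes were taken from the array by name: the gene name begins with Rpl or Rps and a digit, or with Rplp and a digit, or is Rpsa, without the Rps6k kinases and without pseudogene names. A probe was kept where the scanner marked it well above background on all 6 arrays. Of 186 probes for 87 gene names, 177 probes for 84 genes were kept, of 56605 probes for 37074 gene names on the array. Of the 84 genes, 50 have large subunit names and 33 have small subunit names. The other is Rps19bp1, whose product binds a ribosomal protein and is not one. Rpl3l, Rpl10l and Rpl39l, paralogs named after ribosomal proteins, had no probe that passed. Direction and size played no part in the choice, but the genes were chosen with earlier results of these data known.

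The RNA came from hypothalamus of male C57BL/6J mice with diet-induced obesity (DIO), on a diet with 60 kcal% fat from 6 weeks of age for 16 weeks. They received GSK-J4 at 30 mg/kg or vehicle. GSK-J4 is an inhibitor of the histone H3K27 demethylases of the Kdm6 family. There are 3 mice per group, and each array holds 1 mouse. The series description places collection at 4 d, the methods describe a longer course, and tissue was taken at ZT 6 h. The vehicle arrays lie on 1 slide and the GSK-J4 arrays on another, scanned on a different day, so every difference below is also one between slides, and the 2 cannot be told apart.

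Ribosomes translate mRNA in every cell. Each is built from a small subunit, which reads the mRNA, and a large subunit, which joins amino acids. Their proteins are made in matched amounts, and their mRNAs are among the most abundant in neurons and glia. Most of them start with a run of pyrimidines behind a cap-site C, the 5′ terminal oligopyrimidine (TOP) tract, through which mTOR signalling controls their translation. RNA levels do not show that control.

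Promoter sequences in RefSeq (GRCm38.p6; 250 bases before and 50 from the annotated start) were found for 63 of the 84 genes, with 74 starts. The stretches shown here run 15 bases each side of the start. Capitals mark the C-led pyrimidine run nearest the start. The first 6 were chosen because the run begins near the annotated start. The next 3 were chosen because these genes passed the test below and no C-led run of 5 or more lies in the stretch.

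Rps6, chr4:86857353-86857382, minus strand: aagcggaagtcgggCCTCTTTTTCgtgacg
Rps18, chr17:33955651-33955680, minus strand: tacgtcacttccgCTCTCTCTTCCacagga
Rps10, chr17:27635230-27635259, minus strand: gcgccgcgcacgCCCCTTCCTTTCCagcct
Rps27, chr3:90213634-90213663, minus strand: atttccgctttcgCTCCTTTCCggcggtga
Rpl28, chr7:4792950-4792979, plus strand: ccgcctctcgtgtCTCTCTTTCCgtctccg
Rpl38, chr11:114668565-114668594, plus strand: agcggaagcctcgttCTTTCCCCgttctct
Rpsa, chr9:120127751-120127780, plus strand: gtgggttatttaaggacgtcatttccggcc
Rpl37a, chr1:72711245-72711274, plus strand: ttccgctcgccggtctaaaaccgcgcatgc
Rpl36al, chr12:69184053-69184082, minus strand: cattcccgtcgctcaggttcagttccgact

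A C followed by at least 4 pyrimidines began within 5 bases of the start in 41.9% of the members' promoters and in 18.3% of all 32851. A C-led run of at least 8 pyrimidines lay within the 15 bases each side in 36.5% of the members' promoters and in 9.26% of all. CCGGAAG, searched on both strands over the 300 bases, was in 35.1% against 8.86%. AAGATGGC was in 10.8% against 2.75% on either strand. TATAAA, on either strand, was in 9.46% of the members' promoters and in 13.6% of all. These letter matches describe the annotated starts and were not tested against the change after GSK-J4. The pyrimidine runs can overlap the motif CCGGAAG on its other strand.

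Signal is given as log2 of the scanner's background-corrected intensity, quantile normalized so that the 6 arrays share 1 distribution. A gene is read from its probe of highest mean signal. On this scale 76 of the 84 genes had a mean signal of at least 14. Between 58% and 64% of all probes were well above background on an array, and no spot of a member was saturated. The third GSK-J4 array stood apart: 214 tested probes lay more than 3 log2 units below the median of the other arrays there, against 11 to 27 on the others.

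The tissue label was checked against its markers. Of 16 hypothalamic markers, 8 were above background on all 6 arrays, among them Npy at 11.46 to 12.04. The hypothalamic transcription factors Nkx2-1, Sim1 and Otp were well above background on 0 arrays, and Avp and Pmch on 3. The first vehicle array also held choroid plexus transcripts: their summed linear signal was 121470 there at the top of a vehicle range that starts at 3427, and 3132 to 13039 after GSK-J4. All 10 tested choroid plexus markers had lower means after GSK-J4, and none passed the test. Markers of other kinds also moved. Of 10 tested hypothalamic markers 9 had higher means after GSK-J4 and 2 rose, Npy by 0.42 and Pomc by 0.86, and their summed linear signal was 4602 to 5025 in vehicle and 6153 to 6875 after GSK-J4. Of 6 tested markers of cerebral cortex and hippocampus, Emx1 rose by 0.53 and Neurod6 fell by 0.47, with sums of 27570 to 31610 in vehicle and 25645 to 27562 after GSK-J4. Of 7 microglia markers 5 had higher means and C1qa rose by 0.41, with sums of 21635 to 23720 and 22667 to 25170. These microglia sums leave out Csf1r, which had no value on the third GSK-J4 array. Of 10 neuron markers Map2 fell by 0.33 and the others did not pass. Their part in the members' differences was not tested. Without the first vehicle array the members' median difference was 0.12. In bulk tissue, fewer cells of a type and less RNA per cell cannot be told apart.

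Ribosomal protein genes were slightly higher in the GSK-J4 group under quantile normalization, and most of the differences were small. The mean was higher after GSK-J4 for 74 of the 84 genes (88.1%), against 54.2% of the 22117 genes tested. The median difference of the members was 0.13 on the log2 scale, with the middle 50% of genes between 0.05 and 0.21, and the median of all genes was 0.04. For 69 of the 84 genes the difference was under 0.25 in size, against 52.3% of all genes. Taken per array, the median deviation of the members from the vehicle mean was 0.02, -0.01 and 0.00 on the vehicle arrays. It was 0.13, 0.12 and 0.16 on the GSK-J4 arrays, so the groups did not overlap. The same median over all genes was -0.01, 0.00 and 0.01 in vehicle and 0.03, 0.03 and 0.06 after GSK-J4, also without overlap.

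**Figure D1:**
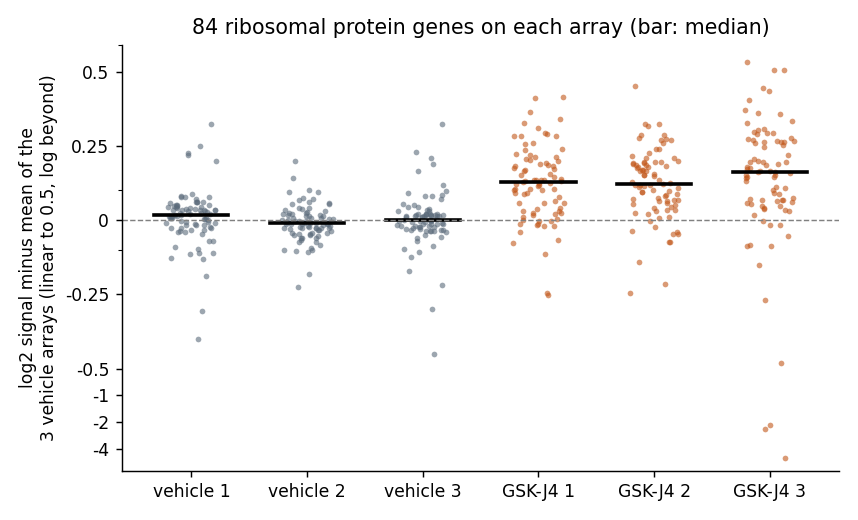
Each point is 1 of the 84 ribosomal protein genes on 1 array, as log2 signal minus the mean of the 3 vehicle arrays (axis linear to 0.5 and logarithmic beyond), with a bar at the median. The medians of the GSK-J4 arrays lie at 0.13, 0.12 and 0.16, and 3 genes stand far below the rest on the third GSK-J4 array.

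In the test across all genes (limma, Benjamini-Hochberg adjusted p at most 0.05), 6 members rose and 0 fell. Over all genes tested, 9.00% rose and 7.77% fell, so the share of members that rose, 7.14%, was near the background. At an unadjusted p of 0.05, 24 members were higher and 0 lower, against 20.6% and 15.9% of all genes. The methods' t-test is named for the arrays without its form, and the general statistics of the study do not assume equal variances. The methods' t-test with unequal variances and the same adjustment called 0 members in either direction, against 0.199% of all genes higher and 0.122% lower. The alternative form with equal variances called 16 members higher (19.0%; all genes 6.39%) and 0 lower (all genes 4.85%). No member reached the 1.5-fold change with an unadjusted p of 0.05 that the methods use, either up or down, by limma or by either form of the methods' t-test, against 4.84% of all genes up and 6.39% down by limma. The groups did not overlap, with GSK-J4 above vehicle, for 43 members (51.2%; all genes 25.5%) and with GSK-J4 below for 2 (2.38%; all genes 20.0%).

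The size of the shift depended on the scaling. With each array divided by its 75th percentile, a scaling that leaves the shape of the distribution alone, 74 members were called higher and 0 lower, and the median was 0.56. Under that scaling 18.8% of all genes were called higher and 8.99% lower, and the median of all genes was 0.09. The methods' fold and p were passed upwards by 36 members (42.9%; all genes 5.67%) and downwards by 0 (all genes 7.58%). After a correction for the GC content of the probes within each array, 0 members were called in either direction, against 4.98% of all genes higher and 5.14% lower, and the median was 0.03, as it was for all genes. The members' probes had a median GC content of 45.0%, and all probes of the fit 43.3%. The unscaled signal ran the other way: the median member read 41145 to 50493 on the vehicle arrays and 32852 to 37782 on the GSK-J4 arrays. The 75th percentile of all probes ran the same way and further, from 787 to 916 on the vehicle arrays and from 406 to 461 on the GSK-J4 arrays.

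Other bright genes were also higher under the 75th percentile scaling. Among genes with a mean log2 signal of at least 14, the median difference was 0.58 for the 76 members and 0.42 for the 1269 other genes. Under quantile normalization the same medians were 0.12 and 0.02, and after the GC correction they were 0.03 and -0.02. The medians of the members were above those of other genes of like signal in each of the 3 brightest bins, under quantile normalization and under 75th percentile scaling.

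**Figure D2:**
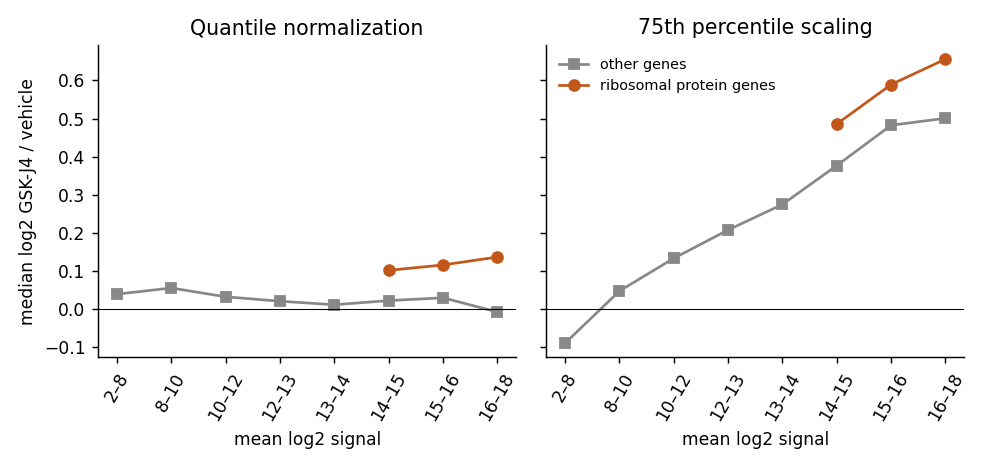
Median log2 ratio of GSK-J4 to vehicle against mean log2 signal, for ribosomal protein genes (orange, bins with at least 10 of them) and all other genes (grey), with quantile normalization on the left and 75th percentile scaling on the right. On the right the other genes climb with signal to 0.50 and the ribosomal protein genes reach 0.66; on the left the other genes stay near 0.

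The 6 genes that rose did so by 1.21 to 1.28-fold. Rpl22, a large subunit protein at the exit tunnel, read 13.14, 13.07 and 13.07 in vehicle and 13.38, 13.42 and 13.54 after GSK-J4. Every GSK-J4 array was above every vehicle array. The difference was 0.35 ± 0.07 (log2, SE, n = 3 per group; limma adjusted p = 0.032). Rpl36al, the autosomal paralog of X-linked Rpl36a, read 12.59, 12.51 and 12.49 in vehicle and 12.87, 12.85 and 12.80 after GSK-J4, again without overlap (0.31 ± 0.06, limma adjusted p = 0.032). Rpsa, the small subunit protein also known as a laminin receptor precursor, read 15.31, 15.44 and 15.39 in vehicle and 15.74, 15.69 and 15.63 after GSK-J4. Its groups did not overlap either (0.31 ± 0.07, limma adjusted p = 0.038).

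Rpl37a and Rpl34 were, like Rpl22, read from probes printed on 10 spots of each array. Rpl37a, a zinc finger protein of the large subunit, read 16.19, 16.17 and 16.18 in vehicle and 16.41, 16.47 and 16.47 after GSK-J4 (0.27 ± 0.06, limma adjusted p = 0.036). Rpl34, of the large subunit, read 14.72, 14.69 and 14.70 in vehicle and 14.94, 14.97 and 15.11 after GSK-J4 (0.30 ± 0.07, limma adjusted p = 0.041). In both genes every GSK-J4 array was above every vehicle array. For each of the 6 genes the exact two-sided permutation test gave p = 0.1, the smallest that 3 arrays against 3 allow. None of the 6 calls held when any 1 of the 6 arrays was left out, or after the GC correction, while all 6 kept their direction. Over all genes, leaving out 1 array reduced the count called higher from 1990 to between 1 and 1382.

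The largest positive difference belonged to a gene that did not pass. The probe named Rpl37 read 6.40, 6.52 and 6.20 in vehicle and 6.79, 6.65 and 7.02 after GSK-J4, a difference of 0.44 ± 0.13 (limma adjusted p = 0.070). A probe named for the retrogene Rpl37rt, whose listed transcripts include that of Rpl37, differed by 0.12 ± 0.06 (limma adjusted p = 0.20).

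**Figure D3:**
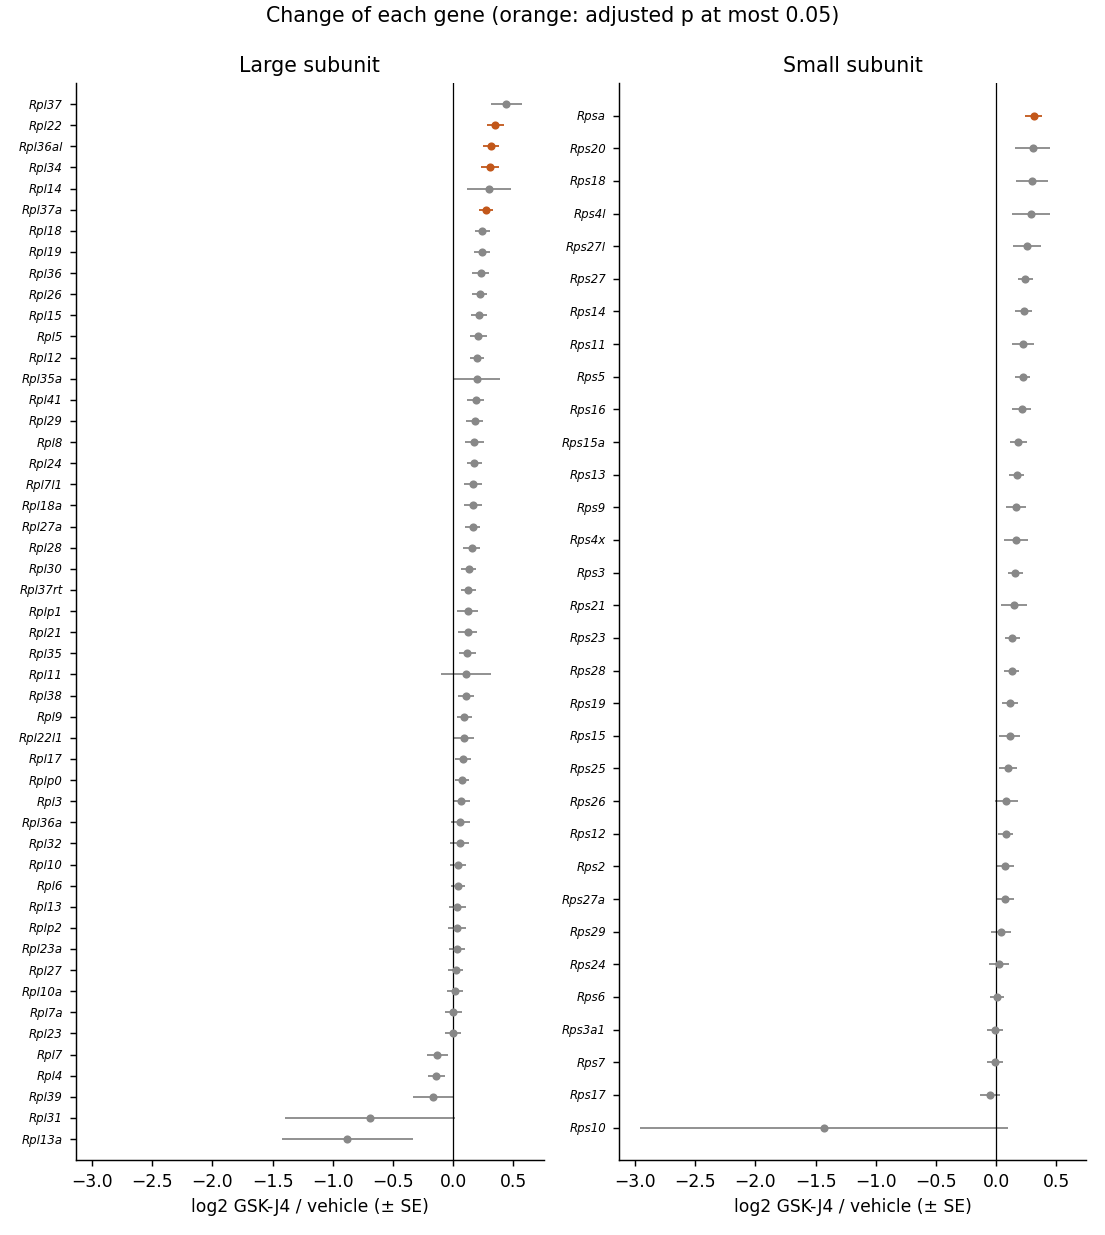
Log2 ratio of GSK-J4 to vehicle for 50 large subunit and 32 small subunit genes (points, with the standard error of the fit), ordered by size and coloured orange where the adjusted p was at most 0.05. Rps10, Rpl13a and Rpl31, at -1.43, -0.88 and -0.69, have the widest errors.

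By subunit, the median difference was 0.12 for the large subunit and 0.15 for the small. The difference was above 0 for 44 of 50 large subunit genes, and 4 of the 50 rose. It was above 0 for 29 of 33 small subunit genes, and 2 of the 33 rose. Of all genes tested, 54.2% had a difference above 0 and 9.00% rose. The share that rose was thus not above the background in either subunit. Whether the subunits differ was not tested.

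The P stalk, through which elongation factors reach the ribosome, is made of Rplp0, Rplp1 and Rplp2. Rplp0 read 14.29, 14.30 and 14.24 in vehicle and 14.34, 14.34 and 14.37 after GSK-J4. The GSK-J4 arrays were all higher, by 0.07 ± 0.06, and the gene did not pass (limma adjusted p = 0.42). On the probes that stand for them, Rplp1 differed by 0.12 ± 0.09 and Rplp2 by 0.03 ± 0.08, with overlapping groups. The 10-spot probe of Rplp1 differed by 0.19 ± 0.08, with every GSK-J4 array above every vehicle array. Its other single-spot probe differed by -0.09 ± 0.07, with every GSK-J4 array below every vehicle array. Rpl5 and Rpl11, which carry the 5S RNA into the large subunit and bind Mdm2, differed by 0.21 ± 0.07 (limma adjusted p = 0.097) and by 0.10 ± 0.21. The other probe of Rpl5, on 1 spot, differed by -0.10 ± 0.06, with every GSK-J4 array below every vehicle array. Rpl11 spread over 15.37 to 15.87 in vehicle and 15.40 to 15.98 after GSK-J4, so its groups overlapped.

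For the 8 members that line or surround the tunnel by which the new protein leaves, the probe that stands for each gene is given first. On these probes Rpl22 rose and the others did not pass. Rpl19 and Rpl26 were nearest to the threshold, at 0.24 ± 0.06 (limma adjusted p = 0.056) and 0.22 ± 0.06 (limma adjusted p = 0.061). Rpl35 differed by 0.12, Rpl17 by 0.08, Rpl23a by 0.03, Rpl39 by -0.17 and Rpl31 by -0.69. A single-spot probe of Rpl23a rose by 0.46 ± 0.11 (limma across all probes, adjusted p = 0.044). So did a single-spot probe of Rpl26, by 0.37 ± 0.07 (limma across all probes, adjusted p = 0.026). The 10-spot probes of Rpl39 differed by 0.20 and 0.15, both with every GSK-J4 array above every vehicle array. Of the 5 probes of Rpl39, 3 were above 0. The 3 probes of Rpl17 differed by 0.02 to 0.21. The 5 small subunit members at the mRNA channel, Rps2, Rps3, Rps15, Rps23 and Rps27a, differed by 0.07, 0.16, 0.11, 0.14 and 0.07. On the probes that stand for them, 0 passed by limma. Rps27a is made as a fusion with ubiquitin.

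Paralogs allow a ribosome to carry an alternative protein. Rpl22 rose and its paralog Rpl22l1 differed by 0.09 ± 0.08 (limma adjusted p = 0.49). Rpl36al rose, and the probe that stands for Rpl36a differed by 0.06 ± 0.08 (limma adjusted p = 0.62). The 10-spot probe of Rpl36a differed by 0.27 ± 0.09 (limma across all probes, adjusted p = 0.088) and its other single-spot probe by 0.18 ± 0.08, both with every GSK-J4 array above every vehicle array. Rps27 and Rps27l differed by 0.24 and 0.26, and Rps4x and Rps4l by 0.16 and 0.29. For Rpl7 and Rpl7l1 the differences were -0.13 and 0.17. None of the probes that stand for these genes passed. The other probes of Rpl7, each on 1 spot, differed by 0.27 ± 0.09 and 0.03 ± 0.07, and did not pass. Differences within these pairs were not tested. Rpl3 and Rpl10, whose named paralogs had no probe that passed on all arrays, differed by 0.07 and 0.04.

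Several ribosomal protein genes serve as reference genes in quantitative PCR. Of the 8 listed, 0 passed by limma on the probes that stand for them, and 6 had higher means after GSK-J4. Rps18 differed by 0.30 ± 0.13, Rpl19 by 0.24 ± 0.06, Rps13 by 0.17 ± 0.06, Rpl30 by 0.13 ± 0.06, Rplp0 by 0.07 ± 0.06 and Rpl32 by 0.05 ± 0.08. The 10-spot probes of Rps18 differed by 0.31 ± 0.08 (limma across all probes, adjusted p = 0.048) and 0.21 ± 0.07. In both, every GSK-J4 array was above every vehicle array. A single-spot probe of Rpl30 rose by 0.31 ± 0.07 (limma across all probes, adjusted p = 0.042), and the other probe of Rps13 differed by -0.11. Rpl4 read 15.13, 15.08 and 15.07 in vehicle and 14.98, 14.88 and 15.01 after GSK-J4. It was lower on all GSK-J4 arrays, by 0.14 ± 0.07, and did not pass (limma adjusted p = 0.19). Under 75th percentile scaling Rpl4 was higher instead, by 0.29. The 19 genes mutated in Diamond-Blackfan anaemia, an inherited failure of red cell production, had a median of 0.11. On the probes that stand for them, 0 passed by limma in either direction.

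The 3 largest negative differences each held a single low spot of the third GSK-J4 array. The probes are given by their first 30 bases, because probes of the same gene disagree, with the mm9 position of the whole probe.

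Rps10, 1 spot, chr17:27767387-27767446, minus strand: cggctttggtcgtggacgtggtcagccacc
Rps10, 10 spots, chr17:27771085-27771144, minus strand: acatttctactggtaccttacgaacgaggg
Rpl31, 1 spot, chr1:39428148-39428207, plus strand: tctacagacggtcaacgtggatgagaacta
Rpl31, 10 spots, chr1:39425070-39426887, plus strand: ccatcaacattcacaagcgcatccatggag
Rpl13a, 1 spot, chr7:52381388-52381529, minus strand: aaggaaaagtccaagatgcactatcggaag

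The first Rps10 probe read 16.06, 16.02 and 15.36 in vehicle and 16.14, 16.27 and 10.75 after GSK-J4. The value of 10.75 alone set the mean difference of -1.43 ± 1.53 (limma adjusted p = 0.53). Without that array the difference was 0.39. Another single-spot probe of Rps10, which overlaps the first by 40 bases, read 14.67, 14.88 and 14.76 in vehicle and 15.06, 14.95 and 14.89 after GSK-J4. The 10-spot probe of Rps10 read 14.15, 14.08 and 14.06 in vehicle and 14.34, 14.36 and 14.45 after GSK-J4. On that probe Rps10 rose, by 0.29 ± 0.07 (limma across all probes, adjusted p = 0.047).

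The single-spot Rpl31 probe read 15.91, 15.89 and 15.77 in vehicle and 16.03, 15.99 and 13.49 after GSK-J4, a difference of -0.69 ± 0.70. Its 10-spot probe read 14.50, 14.48 and 14.51 in vehicle and 14.76, 14.70 and 14.78 after GSK-J4, higher by 0.25 ± 0.07 (limma across all probes, adjusted p = 0.054). Rpl13a, a large subunit protein known for silencing inflammatory mRNAs, has 1 member probe. It read 14.86, 14.63 and 14.42 in vehicle and 14.39, 14.39 and 12.48 after GSK-J4. All GSK-J4 arrays were below all vehicle arrays, and the difference of -0.88 ± 0.54 did not pass (limma adjusted p = 0.29). Without the third GSK-J4 array it was -0.25. Over all 177 member probes, 6 lay more than 1 log2 unit below the median of the other arrays on the third GSK-J4 array, 2 did so on the first vehicle array, and none on the other 4 arrays. All 8 were single-spot probes.

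**Figure D4:**
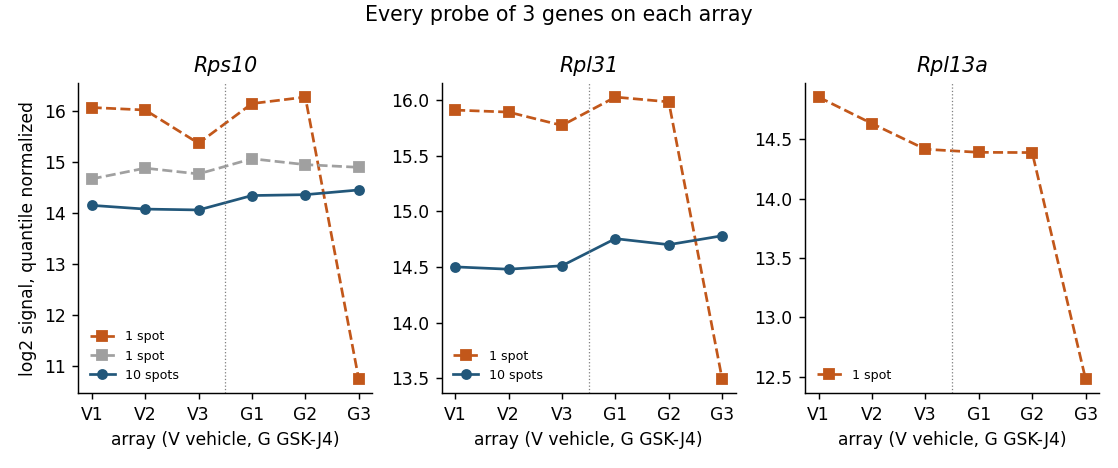
Quantile-normalized log2 signal of every member probe of Rps10, Rpl31 and Rpl13a on the 3 vehicle (V) and 3 GSK-J4 (G) arrays; circles are probes on 10 spots, squares probes on 1 spot. The 3 single-spot probes drop to 10.75, 13.49 and 12.48 on the third GSK-J4 array, where the 10-spot probes of Rps10 and Rpl31 do not.

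Of the 177 member probes, 65 probes for 48 genes were printed on 10 spots of each array. Across the 10 spots of such a probe, the median SD on an array was 0.02 to 0.09 on the log2 scale. The difference was above 0 for 62 of these 65 probes, against 52.7% of all 34443 probes tested, and their median was 0.17. Over all member probes it was above 0 for 147 of 177. The groups did not overlap, with GSK-J4 higher, for 50 of the 65 probes on 10 spots and for 95 of all 177 member probes, against 24.5% of all probes. GSK-J4 was lower without overlap for 0 of the 65 and for 5 of the 177, against 21.1%. The 10-spot probes had differences between -0.05 and 0.46. The 112 single-spot probes had a median of 0.11 and ranged from -1.43 to 1.01. Over all member probes 16 rose and 0 fell by limma, against 8.38% and 8.40% of all probes, and 8 of the 16 were 10-spot probes.

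The largest rise of a 10-spot probe was that of Rps19, the gene most often mutated in Diamond-Blackfan anaemia. This probe read 14.66, 14.63 and 14.63 in vehicle and 15.04, 15.05 and 15.22 after GSK-J4. It rose by 0.46 ± 0.08 (limma across all probes, adjusted p = 0.023), while the other 10-spot probe of Rps19 differed by 0.11 ± 0.07. Among single-spot probes, 1 of the 5 probes of Rpl39 rose by 0.57 ± 0.08 (limma across all probes, adjusted p = 0.017), while the probe that stands for the gene differed by -0.17. A second probe of Rps27a was dim, at 4.21, 4.66 and 4.47 in vehicle and 4.94, 5.44 and 5.17 after GSK-J4. A probe of Rps9 that the background filter left out read 4.41 to 5.60. The dim Rps27a probe rose by 0.73 ± 0.17 (limma across all probes, adjusted p = 0.042). The probe that stands for Rps27a read 15.98 to 16.18 and differed by 0.07. The 2 probes of Rpl21 differed by 0.12 and -0.54. The single-spot probe of Rpl37a differed from the median of the other arrays by -2.26 on the first vehicle array, and its difference of 1.01 did not pass. Of the 60 genes with several member probes, all probes were above 0 for 38, at least 1 probe rose for 14, and all probes rose for 0. For 11 member probes of 10 genes, a run of 40 bases was shared with a probe listed under another name, among them Rpl22l1, Rpl21 and Rpl30. Their signal cannot be assigned to 1 gene. The probe that stands for Rps27 is placed on chromosome 9 and that for Rpl13 on chromosome 4. The promoters of these genes lie on chromosomes 3 and 8. Which transcripts these probes read was not tested.

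Other genes of translation were taken from lists of known genes. For comparison, 9.00% of all genes tested rose, 7.77% fell and 54.2% had a difference above 0. The 77 mitochondrial ribosomal protein genes, encoded in the nucleus, gave 16 that rose and 0 that fell, a median of 0.17, and 65 differences above 0. Of those that rose, the largest differences were Mrpl54, 0.60 ± 0.10 (limma adjusted p = 0.022), Mrps25, 0.43 ± 0.07, and Mrpl14, 0.39 ± 0.08. Mrpl23, at -0.78, and Mrps18a, at 0.45, did not pass. Of the 63 ribosome assembly genes 4 rose, with Nle1, Wdr12 and Noc3l at 0.46, 0.34 and 0.32, and Nmd3, the export adaptor of the large subunit, fell by 0.45. Of 18 genes of rRNA transcription, Cd3eap, a subunit of RNA polymerase I, rose by 0.38 and Taf1d, of its selectivity factor, fell by 0.55.

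Of 43 initiation factor genes, Eif4ebp1, a repressor of cap-dependent translation, rose by 0.65 ± 0.15 (limma adjusted p = 0.038). Eif6, which keeps free large subunits apart from small ones, rose by 0.44 ± 0.08 (limma adjusted p = 0.024). Eif3m, Eif1 and Eif4e fell by 0.47, 0.38 and 0.33. Of 13 elongation and release factor genes, Eef1d rose by 0.37. The other mRNAs with TOP tracts, 21 genes, had a median of -0.04, and Eef1d alone among them was called. Fau, which is made as a fusion with a ubiquitin-like protein, differed by 0.23 and did not pass. The medians of the initiation, elongation and assembly lists were 0.01, 0.02 and 0.02, close to 0.04 for all genes. With 75th percentile scaling the median of all genes was 0.09, and 18.8% of them were called higher and 8.99% lower. Under that scaling 47 mitochondrial ribosomal protein genes were called higher and 0 lower, with a median of 0.37. The other TOP mRNAs then had 9 called higher, 0 lower and a median of 0.31, the initiation factors 15, 1 and 0.21, and the elongation factors 4, 0 and 0.31. The assembly genes had 13 called higher, 3 lower and a median of 0.12, and the genes of rRNA transcription 2, 1 and 0.14.

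**Figure D5:**
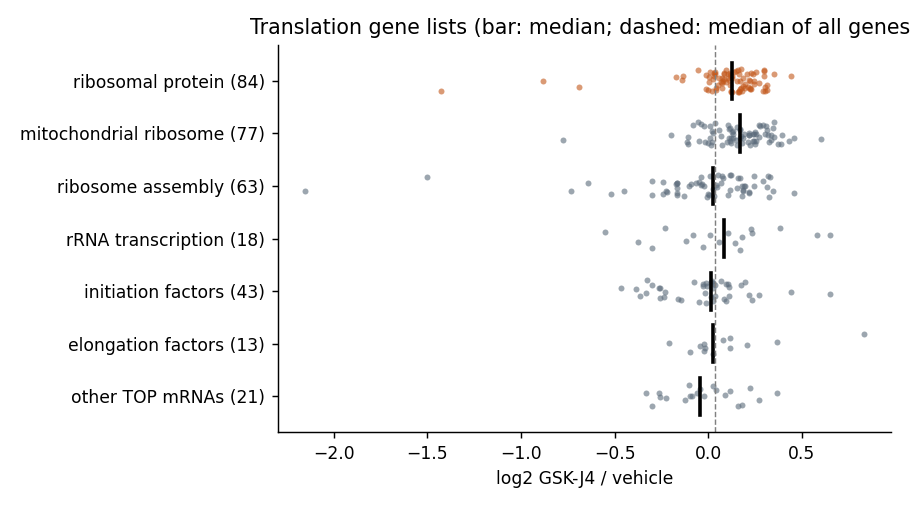
Log2 ratio of GSK-J4 to vehicle for each gene of 7 translation lists (number of genes in parentheses), with a bar at the list's median and a dashed line at the median of all genes. Cytoplasmic and mitochondrial ribosomal protein genes have medians of 0.13 and 0.17, and the other TOP mRNAs -0.04.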

How the data were processed

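Total RNA was labelled with Cy3 and hybridised to Agilent SurePrint G3 Mouse arrays. The authors extracted the intensity of each spot with Feature Extraction 10.7.1.1 and deposited those background-corrected intensities with spot flags. A normalized table of log2 values that the authors deposited served as an alternative (0 columns unassigned). Control and outlier spots were left out, log2 intensities of a probe's spots were averaged and quantile normalized, and a probe stayed in where either group had all 3 arrays well above background. The probe of highest mean stood for each gene. Groups were compared with limma 3.58.1 in R 4.3.3, adjusted over 22117 genes or 34443 probes, and the fit was tested on simulated data. The number of arrays limits the precision.

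Members, gene lists and tests were chosen with earlier results of these data known. Genes named are those that passed, the 5 largest differences each way, the role lists, and genes whose probes disagree most; Rps6, Rps19, Rps27, Rpl28, Rpl38, Mrpl23 and Mrps18a were chosen after their values or sequences were seen. Promoters came from RefSeq (GRCm38.p6), probe positions from the files (mm9). Alternatives covered scaling, background, filter, variance model, weights, test, replicate block, GC content, probe choice and single arrays. A few of the genes so chosen are not reported here.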

Additional observations from a re-analysis of the deposited data

How the results depend on the processing

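The count of 0 members lower was the same under every alternative run, and the median difference stayed above 0, but the count higher moved. Against 6 members higher (all genes 9.00%), it was 74 with 75th percentile scaling (all genes 18.8%), 18 with an intensity trend and robust eBayes (10.6%), 16 with the methods' t-test of equal variances (6.39%), 13 with the probe of lowest variance within groups (13.1%), 10 with normexp (9.24%), and 0 with the methods' t-test of unequal variances (0.199%) and with the GC correction (4.98%). Leaving out 1 array gave 0 higher each time, with a median of 0.12 to 0.14. Members past the methods' fold and p numbered 36 with 75th percentile scaling and 0 otherwise. The median was 0.56 with 75th percentile scaling, 0.035 with the GC correction, and 0.15 with 10-spot probes where a gene has one (chosen after seeing the data). The cause was not tested. With the replicate block, 0 members were higher (0 of all genes), and with the block and the GC correction 0, with a median of 0.035. Same-numbered arrays deviated together by correlations of 0.01, 0.04 and 0.08, so the numbers were not taken as pairs.

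Of 42 genes named by rule, 23 kept their direction under all alternatives. With 75th percentile scaling Rpl39 became 0.25, Rpl4 0.29 and Rpl7 0.30. With the GC correction, with or without the replicate block, Rpl10 became -0.0034, Rpl11 -0.070, Rpl3 -0.12, Rplp1 -0.089, Rps15 -0.097 and Rps23 -0.021. With normexp Rpl22l1 became -0.032, Rpl3 -0.11, Rpl36a -0.0015, Rplp0 -0.016, Rplp2 -0.026 and Rps10 0.24. With the mean of a gene's probes Rpl21 became -0.21, Rpl39 0.15 and Rpl7 0.057. With the probe of lowest variance Rpl3 became -0.081, Rpl31 0.25, Rpl39 0.15, Rpl5 -0.10, Rpl7 0.034, Rplp1 -0.090 and Rps10 0.29. With 10-spot probes Rpl31 became 0.25, Rpl39 0.20 and Rps10 0.29. Leaving out 1 array gave -0.045 to 0.29 for Rpl11, -0.0064 to 0.048 for Rpl23a, -1.12 to 0.15 for Rpl31, -0.0028 to 0.086 for Rpl32, -0.0049 to 0.090 for Rplp2 and -2.37 to 0.39 for Rps10.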
